A study of Mus musculus with 10 samples.

Results

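The 10 genes described here, *Nfkb1*, *Nfkb2*, *Rela*, *Relb*, *Nfkbia*, *Nfkbie*, *Tnfaip3*, *Birc3*, *Tnip1* and *Bcl3*, encode subunits of the transcription factor NF-kB, its inhibitors and regulators that NF-kB itself induces. They were taken by name from the 28522 genes found in at least 3 of the cells kept, and all 10 were tested in every comparison. Their levels were measured in endothelial cells of lymphatic (LECs) and blood vessels (BECs) of mouse ear skin, single cells of which had been sorted into 384-well plates and sequenced by Smart-Seq2, a method that reads along the whole cDNA and carries no molecular barcodes. The mutant mice were 5 Pik3caH1047R;Cdh5-CreERT2 animals, positive for Cre, that received 4-OHT on the ear at 3 wk of age and were analysed at 5 wk. Cdh5 is active in endothelial cells at large, so the Cre can recombine in both LECs and BECs, and 4-OHT, the active form of tamoxifen, switches it on. The transgene then drives a PI3K catalytic subunit with the activating H1047R change. The tables hold no entry for the transgene, so that its transcript could not be used to check the labels. Of the control mice, both also 5 wk old, control 1 was a separately bred wild type of strain C57BL/6J and received no 4-OHT. Control 2 was a littermate from the mutant line without Cre and did receive 4-OHT. The controls therefore differed from each other in mouse line and in treatment, while the paper states that all mice had a C57BL/6J background. The other control of the series was not analysed here.

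NF-kB acts as dimers of the proteins encoded by *Rela*, *Relb*, *Rel*, *Nfkb1* and *Nfkb2*. In resting cells the dimers are held in the cytoplasm by inhibitors of the IkB family, among them the products of *Nfkbia* (IkB-alpha) and *Nfkbie* (IkB-epsilon), until receptors for TNF, IL-1 or microbial products start a kinase cascade that leads to IkB breakdown. The freed dimers enter the nucleus and induce, next to adhesion molecules and chemokines in endothelium, many of their own inhibitors, which makes the response brief. Several of these genes, *Nfkbia* in particular, can also be induced by tissue dissociation and sorting, together with immediate early genes such as *Fos* and *Jun*.

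NF-kB binds DNA at kB sites, and the promoters of its feedback genes are textbook examples of such sites. A RefSeq table on build GRCm38.p6 held promoters, from 250 bases before to 50 after the start site, for 8 of the 10 genes, *Nfkb1* and *Relb* having no entry. The kB consensus, searched on both strands, matched in the promoters of 6 of these 8 genes, *Nfkb2*, *Nfkbia*, *Nfkbie*, *Tnfaip3*, *Tnip1* and *Bcl3*, against 9.55% of 27025 genes and 8.46% of 32851 promoters in the table. No match was found in the windows of *Rela* and *Birc3*. A looser pattern, GGGNNNNNCC, of which the consensus is a special case, was present in 50.8% of all promoters and so separates little. One stretch with a match is given for each of these 6 genes, whose values carry most of the results. Further matches, not printed, lay at -125 to -116 from the start site of *Tnfaip3*, at -11 to -2 from that of *Nfkb2*, and in 2 other promoters of *Nfkb2*. Capitals mark the kB match, or overlapping matches, and each stretch reads 5′ to 3′ on the strand of the gene. The *Nfkbie* stretch lies at chr17:45555450-45555699 on the plus strand, directly before the start site. The *Nfkbia* stretch lies at chr12:55492648-55492897 on the minus strand, also directly before the start site. The *Tnip1* stretch is at chr11:54962941-54963040, minus strand. Shorter stretches, which overlap annotated exons, are those of *Nfkb2* at chr19:46304692-46304721, plus strand, of *Tnfaip3* at chr10:19015404-19015432, minus strand, and of *Bcl3* at chr7:19822737-19822765, minus strand.
*Nfkbie*: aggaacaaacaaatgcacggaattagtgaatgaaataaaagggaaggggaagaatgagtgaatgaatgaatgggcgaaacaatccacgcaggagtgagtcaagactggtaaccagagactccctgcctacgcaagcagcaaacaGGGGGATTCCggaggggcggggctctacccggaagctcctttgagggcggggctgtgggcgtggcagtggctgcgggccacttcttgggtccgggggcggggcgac
*Nfkbia*: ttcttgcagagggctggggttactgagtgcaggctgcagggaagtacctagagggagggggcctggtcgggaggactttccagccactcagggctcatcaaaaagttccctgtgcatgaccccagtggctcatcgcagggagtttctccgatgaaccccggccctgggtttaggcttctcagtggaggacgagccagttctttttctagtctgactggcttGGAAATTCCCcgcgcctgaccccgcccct
*Tnip1*: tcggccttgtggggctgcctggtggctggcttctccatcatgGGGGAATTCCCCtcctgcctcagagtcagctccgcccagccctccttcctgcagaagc
*Nfkb2*: cgtcacGGGAATTCCCCccctcggggggcc
*Tnfaip3*: aatttccatcGGAAATCCCCctgttggca
*Bcl3*: agtcggcggcagGGGAAGTCCCgctgccc
Counted from the start site, the match covered positions -106 to -97 in *Nfkbie* and -29 to -20 in *Nfkbia*. A match of letters is not evidence that NF-kB was bound there.

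LECs were defined as cells with at least 300 CPM (counts of a gene scaled to a common total of reads) of *Prox1*, *Flt4* and *Mmrn1* together and more of these than of *Flt1*, *Emcn* and *Podxl* together, and BECs by the reverse, which gave 1641 LECs (1283 from mutant mice, 358 from control mice) and 1490 BECs (1174 and 316) of 3248 cells kept. The labels name the samples as sorted LECs, yet the plates held nearly as many BECs. Markers outside the rule separated the types, since *Lyve1*, *Pdpn*, *Reln* and *Ccl21a* together reached 3166–4868 CPM in LECs and 72.5–477 CPM in BECs of the 7 mice. Conversely, *Plvap*, *Vwf*, *Cd34* and *Ly6c1* together reached 5573–8568 CPM in BECs and 709–1255 CPM in LECs. Reads were summed per mouse over its LECs or BECs, which gave sums of 55614594–194349752 reads for LECs and 38401474–99628037 for BECs. Some facts of the libraries bear on what follows. Plates of mutants 1–4 carry numbers of one series and those of mutant 5 and both controls of another, so that genotype and plate series are largely confounded. As mutants 1–4 have no control in their series, a fit with the plate series as a block sets mutant 5 alone against the controls. Fibroblast markers (4 of 5 higher in both controls than in all mutants, in either cell type) summed to 181 and 385 CPM in LECs of controls against 16.4–105 in mutants, and to 543 and 760 CPM in BECs of controls against 13.3–42.6 in mutants, and no marker of this list was at 0. Mural cell markers (2 of 5 higher in both controls than in all mutants, none at 0) summed to 106 and 145 CPM in LECs of controls against 41.8–71.8 in mutants, and to 304 and 658 CPM in BECs of controls against 36.2–200 in mutants. Schwann and neural markers (2 of 4 higher in both controls than in all mutants in LECs, 0 in BECs) summed to 17.0 and 69.0 CPM in LECs of controls against 0.297–10.9 in mutants. In BECs they were at 92.0 CPM in control 1, 0.276 in control 2 and 0.630–3.06 in mutants. Keratinocyte marker sums overlapped between the groups, at 214 and 394 CPM in control and 78.7–348 in mutant LECs. In BECs they were 343 and 491 CPM in controls and 14.6–727 in mutants. Cycling cells (reads of at least 2 of 7 cycling genes after thinning to 50000 reads per cell) were 22.0–52.2% of LECs in mutants and 3.43% and 4.37% in controls, and 7.47–50.8% against 3.18% and 3.77% of BECs. Of the LECs, *Ptx3*-positive cells (more than 1 thinned read of *Ptx3*) were 36.4–52.0% in mutants and 7.10% and 28.6% in controls 1 and 2. Cells with at least 300 CPM of both marker sums (dual-marker cells) were 58.6–66.9% of the LECs of every mouse. Finally, 16 handling genes (immediate early and heat shock genes, none of them among the 10) summed to 2675 and 4381 CPM in LECs of controls against 1084–2123 in mutants, and to 5033 and 5283 CPM in BECs of controls against 2042–3246 in mutants. By the median cell, control 1 was highest but control 2 was not, at 55 thinned handling reads in LECs (37–75 in mutants) and 76 in BECs (65–118.5 in mutants).

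*Nfkbie* rose in mutant LECs and was the only one of the 10 genes to pass the test there. The other 9 differed by less than 1.6-fold, and their adjusted p ranged from 0.203 upward. Without dual-marker cells, *Nfkb2* (log2 fold change 1.74 ± 0.32, adjusted p = 0.0342) and *Tnip1* (1.43 ± 0.27, adjusted p = 0.0382) were called as well. In that setting 368 of all genes were called, beside 546 with these cells kept. It left out 64.5% and 66.9% of the LECs of controls 1 and 2. In BECs none of the 10 passed, although *Nfkb2*, *Nfkbie* and *Bcl3* stood 2.06-, 2.63- and 2.06-fold higher in mutants on average and no mutant mouse overlapped the controls for these genes. Genes were tested with edgeR (quasi-likelihood test on the sums, Benjamini-Hochberg adjustment over all genes) and called at an adjusted p under 0.05. Of 19753 genes tested in LECs 2.76% were called, and of 19313 tested in BECs 2.12%. The median log2 fold change of the 10 genes was 0.32 in LECs and 0.39 in BECs, beside -0.01 and 0.01 over all genes, and 8 of 10 were above 0 in each cell type.

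Among the subunits, *Rela* encodes p65, the main activating subunit. It stood at 247, 294, 321, 257 and 271 CPM in LECs of mutants 1–5 and at 274 and 195 CPM in those of controls 1 and 2. Control 1 lay inside the mutant range, and the log2 fold change of 0.24 ± 0.17 (SE) did not pass (adjusted p = 0.462, edgeR). In BECs *Rela* was at 274, 235, 239, 251 and 221 CPM in mutants and at 205 and 168 CPM in controls. These groups did not overlap, but the difference of 0.35 ± 0.15 on the log2 scale did not pass either (adjusted p = 0.232, edgeR).

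*Nfkb2*, which encodes p100, the precursor of p52 and itself an inhibitor of RelB dimers, was at 77.8, 70.1, 45.5, 63.8 and 65.9 CPM in mutant LECs and at 43.4 and 42.3 CPM in control LECs. Every mutant lay above both controls, mutant 3 by little. The log2 fold change was 0.58 ± 0.23, with an adjusted p of 0.203 (edgeR). In BECs the mutant values of *Nfkb2* were 80.0, 71.6, 108, 62.1 and 48.2 CPM and the control values 31.5 and 38.6 CPM, again without overlap (log2 fold change 1.04 ± 0.31, adjusted p = 0.127). DESeq2 called this BEC difference (adjusted p = 0.0160), the lowest among 22 alternatives in which the adjusted p ran from 0.0160 to 1. The plates of mutant 3 differed, at 70.5 and 157 CPM. Of the exon bases of *Nfkb2*, 18.1% are shared with genes on the other strand (*Psd* and AC114539.1), and the kit does not mark strand.

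*Relb*, the partner of p52 in the noncanonical pathway, was at 94.5, 88.6, 78.4, 72.1 and 54.5 CPM in mutant LECs and at 62.9 and 39.4 CPM in control LECs, so that mutant 5 fell between the controls. In BECs the values were 81.1, 78.6, 96.7, 57.8 and 69.9 CPM in mutants and 53.5 and 46.2 CPM in controls, without overlap. The log2 fold changes were 0.59 ± 0.26 in LECs (adjusted p = 0.256) and 0.59 ± 0.23 in BECs (adjusted p = 0.204, edgeR). *Nfkb1*, which encodes p105, the precursor of p50, had a log2 fold change of -0.06 ± 0.19 in LECs and -0.10 ± 0.20 in BECs. Its values of 59.7–89.9 CPM in mutant LECs enclosed both controls (77.5 and 69.1 CPM), and those of 52.8–83.7 CPM in mutant BECs did so too (76.7 and 72.3 CPM).

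Among the inhibitors, *Nfkbie* (Ensembl ENSMUSG00000023947, chromosome 17, 45555703 to 45563169, plus strand) was at 154, 197, 224, 185 and 131 CPM in LECs of mutants 1–5 and at 31.9 and 45.2 CPM in LECs of controls 1 and 2. The lowest mutant stood well above the higher control. The log2 fold change was 2.20 ± 0.26, or 4.58-fold, with an adjusted p of 0.00834 (edgeR), and the level was higher than both controls in 5 of 5 mutants. Across 23 alternatives the log2 fold change stayed between 1.50 and 2.48, and the call was kept in 17. Without *Ptx3*-positive cells, whose share differs between the groups, *Nfkbie* was at 105, 158, 161, 118 and 97.9 CPM in mutants and at 27.2 and 43.6 CPM in controls. These groups did not overlap either, but the log2 fold change of 1.85 ± 0.31 no longer passed (adjusted p = 0.0823, edgeR), and the genes called fell from 546 to 9. Without cycling cells it was 2.33 ± 0.29 (adjusted p = 0.0256). The call was also lost without control 1 (adjusted p = 0.0514), in the handling-low cells of each mouse (0.0590), with the summed handling level of each mouse as a covariate (0.180), with the replicate block (0.0712) and within the plate series that mutant 5 shares with the controls (0.373), the adjusted p ranging from 5.14e-15 to 0.373. Within that series, where mutant 5 alone is set against the controls, the log2 fold change was 1.80. With the plate series as a block, it was 1.80 too. The block fit, counted among the 17, rests on the same comparison and is no separate check.

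In BECs *Nfkbie* was at 55.3, 66.5, 61.8, 38.2 and 24.6 CPM in mutants and at 18.3 and 18.2 CPM in controls. All mutants exceeded both controls, mutant 5, the one on the controls' plate series, by the least. The log2 fold change of 1.40 ± 0.40 did not pass (adjusted p = 0.118, edgeR). It passed without mutant 5 (1.55, adjusted p = 0.0371) and by DESeq2 (adjusted p = 0.00675), the range over 22 alternatives being 0.00675 to 1. The size of the BEC difference varied more than that of LECs. It was 0.43 with the plate series as a block, 0.64 without cells with at least 300 CPM of the markers of a contaminating type and 0.12 without cells with at least 2 such markers, a rule that left 11 and 53 BECs of the controls. The same 3 settings gave 1.80, 2.24 and 2.34 in LECs. For other genes in BECs they gave 0.46, 0.55 and 1.79 (*Nfkb2*) and 0.91, 0.78 and 1.13 (*Bcl3*). *Relb* was at 0.49, 0.26 and 0.93 and *Rela* at 0.25, 0.13 and 0.44. For these other genes the first 2 settings gave lower values than the main fit, and the third gave higher ones. The plate series block sets mutant 5 alone against the controls, since the other mutants have no control in their series. Its values are therefore no adjustment of all mutants for the plate series.

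For *Nfkbia* the groups overlapped in both cell types. Its level was 359, 384, 359, 381 and 389 CPM in mutant LECs and 375 and 275 CPM in control LECs, and control 1 lay within the mutants (log2 fold change 0.20 ± 0.14, adjusted p = 0.470, edgeR). In BECs the mutants had 492, 430, 490, 462 and 737 CPM and the controls 540.0 and 422 CPM. Mutant 5 was the high value there, on both of its plates (727 and 758 CPM), and both controls lay below it (log2 fold change 0.09 ± 0.23, adjusted p = 0.865). *Bcl3*, an atypical IkB protein that binds p50 and p52 dimers in the nucleus, separated the groups in BECs only. It was at 105, 82.8, 116, 65.3 and 79.7 CPM in mutant BECs and at 38.2 and 46.7 CPM in control BECs. No mutant value reached down to the controls, yet the log2 fold change of 1.04 ± 0.26 missed the threshold (adjusted p = 0.0774, edgeR; DESeq2 0.00256, range over 22 alternatives 0.00256 to 1). In LECs *Bcl3* was low, at 11.0, 17.1, 19.6, 10.2 and 13.0 CPM in mutants and 16.8 and 15.8 CPM in controls (log2 fold change -0.21 ± 0.33, adjusted p = 0.767). Of its exon bases 6.51% are shared with a gene on the other strand, *Gm16175*.

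Among the ubiquitin-related feedback genes, *Tnfaip3* encodes A20, an enzyme that edits ubiquitin chains and shuts the pathway off. In LECs it was at 13.5, 12.2, 14.9 and 16.4 CPM in mutants 1–4, at 58.8 CPM in mutant 5 and at 22.1 and 8.18 CPM in controls. The log2 fold change of 0.62 ± 0.73 turned on single mice, being -0.10 without mutant 5, 0.06 without control 2 and 1.52 without control 1. It was 3.41 with the handling covariate and -0.42 without *Ptx3*-positive cells, and neither passed. With the plate series as a block, where mutant 5 alone is set against the controls, it was 1.99. In BECs *Tnfaip3* ranged from 18.2 to 31.8 CPM in mutants and was 31.8 and 10.6 CPM in controls. *Tnip1*, whose product works with A20, was at 92.0, 104, 75.4, 64.7 and 65.7 CPM in mutant LECs and 77.1 and 45.3 CPM in control LECs (log2 fold change 0.39 ± 0.27, adjusted p = 0.457), and at 44.3–98.3 CPM in mutant BECs and 52.0 and 45.0 CPM in control BECs. *Birc3* encodes cIAP2, a ubiquitin ligase of TNF receptor complexes. It was at 9.44–21.6 CPM in mutant LECs and 20.1 and 6.29 CPM in control LECs, and at 24.7–45.5 CPM in mutant BECs and 36.8 and 30.9 CPM in control BECs. For these 3 genes the groups overlapped in both cell types.

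**Figure D1:**
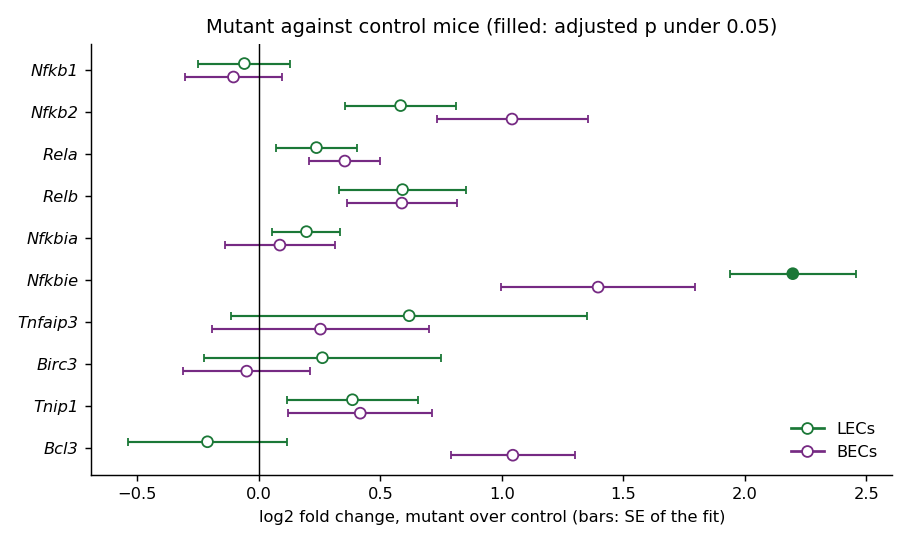
Log2 fold change of each of the 10 genes in mutant against control mice, in LECs (green) and BECs (purple). Bars are the SE of the edgeR fit, and the filled point marks the call of *Nfkbie* in LECs (2.20 ± 0.26).

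Groups of mice that do not overlap were counted for all genes as a background, since 5 against 2 mice separate often. In LECs 2 of the 10 genes (*Nfkb2* and *Nfkbie*) were higher in every mutant than in both controls, where 14% of all genes were. In BECs 5 of 10 (*Nfkb2*, *Rela*, *Relb*, *Nfkbie* and *Bcl3*) were, beside 14.4% of all genes. Of the 10 genes, 2 in LECs and 5 in BECs had an unadjusted p under 0.05, as did 20.1% and 19.6% of all genes. DESeq2 called 1 of 10 in LECs, where it called 13.3% of all genes, and 3 of 10 in BECs (*Nfkb2*, *Nfkbie* and *Bcl3*), where it called 12.6%. The LEC counts are thus near the background.

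The mutant-control differences of LECs and BECs were then set against each other in a joint fit with the mouse as a block. None of the 10 genes passed in edgeR, where 0.192% of 21911 genes did, while 2 had an unadjusted p under 0.05, as did 11.5% of all genes, and DESeq2 called *Bcl3* and 7.02% of all genes. For *Bcl3* the LEC difference was lower than the BEC difference by 1.30 ± 0.30 on the log2 scale, taken as LEC minus BEC a value of -1.30 (adjusted p = 0.154, range over 17 alternatives 0.00261 to 0.536). For *Nfkbie* the LEC difference exceeded that of BECs by 0.86 ± 0.31 (adjusted p = 0.341). The other 8 genes lay between -0.46 and 0.49, with SE of 0.18 to 0.58.

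Shares of cells with at least 1 read were taken after every cell was thinned to 50000 reads, which evens out depth between cells. Such a share also rises with the level per cell, so it does not tell more cells from more reads per cell. *Nfkbie* was found in 48.9%, 43.9%, 53.7%, 47.3% and 45.0% of LECs of mutants 1–5 and in 10.4% and 17.1% of LECs of controls. All mutants lay above both controls, by 34.0 percentage points on average (exact two-sided permutation p = 0.0952, the smallest that 5 against 2 mice allow). The share of BECs with *Nfkbie* was 15.5–33.9% in mutants and 8.18% and 7.64% in controls. *Bcl3* was found in 23.6–35.2% of mutant BECs and in 15.1% and 15.9% of control BECs, and *Nfkb2* in 27.0–36.4% of mutant LECs and 16.9% and 23.4% of control LECs (exact permutation p = 0.0952 for each). The shares of *Tnip1* in LECs (31.3–39.1% against 29.5% and 25.1%) and *Nfkb1* in BECs (28.4–34.4% against 28.3% and 27.4%) separated likewise (exact permutation p = 0.0952 for each). How many of all genes separate in this way was not counted, so these separations have no background here. The share of LECs with *Tnfaip3* was 29.2% in mutant 5, 8.70–10.5% in the other mutants and 8.20% and 3.43% in controls (exact permutation p = 0.0952; 0.952 without thinning). *Nfkbia* was found in 78.6–92.4% of LECs and 85.9–93.4% of BECs of mutants. Without thinning, the *Nfkbie* shares still did not overlap, at 54.5–78.3% against 36.1% and 30.3% in LECs. Those of *Nfkb2* and *Tnip1* in LECs and of *Bcl3* and *Nfkb1* in BECs did overlap.

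Levels per kilobase of exon allow the genes to be compared with each other. In control LECs *Nfkbia* stood highest (206 CPM per kb), followed by *Rela* (86.4), and after a gap by *Tnip1* (17.3), *Nfkbie* (15.9), *Relb* (13.2) and *Nfkb2* (13.0). The last 4 did not differ beyond the spread between the controls. *Bcl3* (6.56), *Nfkb1* (6.08), *Birc3* (2.63) and *Tnfaip3* (1.13 and 3.06 in the 2 controls) came last. In mutant LECs *Nfkbie* came right after *Rela* at 73.6 CPM per kb, with a range over mice of 54.3–92.5 that touched that of *Rela* (90.8–118) and stood clear of that of *Tnip1* (18.3–29.5). In BECs *Nfkbia* (305 CPM per kb in controls, 331 in mutants) and *Rela* (68.7 and 89.8) again led, *Bcl3* came next (17.1 and 36.1), and *Tnfaip3* was lowest (2.93 and 3.57).

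LECs and BECs of the same mice, which came from the same plates, differed in 4 of the 10 genes in mutants, where 19.2% of all genes were called (edgeR, mouse as a block). *Nfkbie* was higher in LECs (log2 difference 1.92 ± 0.17, adjusted p = 0.000162). *Bcl3* was lower in LECs by the largest margin of the 10 genes (log2 difference -2.68 ± 0.17, adjusted p = 3.9e-05). *Birc3* (-1.09 ± 0.31, adjusted p = 0.0424) and *Nfkbia* (-0.45 ± 0.11, adjusted p = 0.0205) were also lower. *Birc3* kept this call in 6 and *Nfkbia* in 9 of 11 alternatives, while *Nfkbie* and *Bcl3* kept it in all 11. In the 2 control mice, where 10.4% of all genes were called, *Nfkbie* (1.05 ± 0.26, adjusted p = 0.0426) and *Bcl3* (-1.37 ± 0.26, adjusted p = 0.0134) passed in the same directions. *Nfkbie* kept the call in 5 and *Bcl3* in 8 of 11 alternatives, and neither was called once cells with at least 300 CPM of both marker sums were left out. The subunit genes *Nfkb1*, *Nfkb2*, *Rela* and *Relb* differed by at most 0.32 between the cell types in either group of mice, with SE of 0.10 to 0.36.

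Handling was examined from cell to cell. In each mouse, cells over the median of the summed handling reads (after thinning) were set against the rest, in 2 sums per mouse with the mouse as a block, and the handling genes were left out of the tested genes. None of the 10 genes was called, nor were many others: 0.00516% of 19386 genes in LECs (*Junos*) and 0.0212% of 18844 in BECs (*Junos*, *Depp1*, *Ppp1r15a* and *Pla1a*), genes named here after their values were seen. At an unadjusted p under 0.05, 2 of the 10 passed in each cell type, beside 5.94% of all genes in LECs and 6.44% in BECs. DESeq2 called *Rela* and *Nfkbia* in LECs, with 1.15% of all genes, and none of the 10 in BECs, with 1.46%. *Nfkbia* in LECs had a median over mice of 409 CPM in handling-high and 325 CPM in handling-low cells, and was higher in the former in 7 of 7 mice (log2 difference 0.37 ± 0.09, adjusted p = 0.665, edgeR). *Rela* was higher in handling-high LECs in 7 of 7 mice (0.28 ± 0.06, adjusted p = 0.665) and in handling-high BECs in 7 of 7 (0.29 ± 0.09, adjusted p = 0.602). *Bcl3* was higher in handling-high BECs in 7 of 7 mice (0.70 ± 0.32, adjusted p = 0.781). *Nfkbie* differed by 0.15 ± 0.16 in LECs and by -0.31 ± 0.18 in BECs, where it was higher in handling-high cells of 1 of 7 mice. These differences run within mice. Between the genotypes, 2 of the 16 handling genes were called higher and 5 lower in mutant LECs, and 3 lower in mutant BECs. Of all genes, 2.76% were called in LECs and 2.12% in BECs. *Egr1*, an immediate early transcription factor gene, fell by 2.78 on the log2 scale in mutant LECs (adjusted p = 0.00392) and by 1.74 in mutant BECs (adjusted p = 0.0103), whereas *Ier5*, another immediate early gene, rose by 2.16 in mutant LECs (adjusted p = 0.00623). In handling-low cells alone the mutant-control difference was 1.90 ± 0.37 for *Nfkbie* in LECs, 1.84 ± 0.54 for *Bcl3* in BECs and 1.35 ± 0.40 for *Nfkb2* in BECs. None of these passed (adjusted p = 0.0590, 0.145 and 0.150, edgeR). The cut was the median of each mouse, so handling was not matched between the groups. Handling-low LECs had a median of 51 thinned handling reads in control 1, 29 in control 2 and 18–44 in mutants. For BECs these medians were 69.5, 31.5 and 35–52. With the summed handling level of each mouse as a covariate, the BEC values were 0.18 ± 0.46 for *Bcl3* and -0.22 ± 0.46 for *Nfkb2*. In summed CPM both controls stood above all mutants, which is the level this covariate holds, while by the median cell control 2 lay among the mutants. The part of handling in the mutant-control differences was not otherwise tested.

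The genes whose reads varied most like those of *Nfkbia* from cell to cell were named by the mean, over 7 mice, of the correlation of log2(1 + thinned reads) within a mouse. In LECs, among 5034 genes, these were *Gm20412* (mean r = 0.15), *Tgm2* (0.14), *Sdc4* (0.14), *Rhob* (0.14) and *Cldn11* (0.13). In BECs, among 4391 genes, they were *Chid1* (0.17), *Zfp36* (0.16), *Tspan4* (0.16), *Ier3* (0.16) and *Lrg1* (0.16), of which *Zfp36* is one of the handling genes. Correlations of this size in sparse counts, over cells that share plates and depth, are a description only. *Rela* reached 0.06 in LECs and 0.04 in BECs, below 277 and 1352 other genes. *Junb*, an immediate early gene, reached 0.10 and 0.14, below 19 and 8.

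*Ptx3* marks the capillary LECs that the study singled out, and LECs of the mutants were split by it, more than 1 thinned *Ptx3* read counting as positive. *Nfkbie* was at 223, 263, 297, 245 and 152 CPM in *Ptx3*-positive and at 104, 156, 158, 118 and 97.5 CPM in *Ptx3*-negative LECs of mutants 1–5. It was higher in the positive cells of 5 of 5 mice, with a log2 difference of 0.89 ± 0.09 (adjusted p = 0.00613, edgeR with the mouse as a block), where 4.62% of 18490 genes were called. The call was kept in 8 of 9 alternatives and lost when any *Ptx3* read counted (0.53, adjusted p = 0.0798, range 2.96e-15 to 0.0798). *Tnfaip3* was at 26.2, 19.8, 25.3, 18.2 and 75.6 CPM in positive and at 4.24, 7.50, 6.29, 14.1 and 33.6 CPM in negative cells. All 5 mice had more in the positive cells, and the log2 difference of 1.52 ± 0.35 just missed the threshold (adjusted p = 0.0596). *Bcl3* ran the other way in 5 of 5 mice, at 1.70–11.7 CPM against 14.1–26.9 CPM (-2.31 ± 0.56, adjusted p = 0.0705). *Nfkbia* was likewise lower in the positive cells of 5 of 5 mice, but slightly (-0.25 ± 0.06, adjusted p = 0.0681), and *Rela* was lower in 4 of 5. *Nfkb2* was higher in 5 of 5 mice (0.39 ± 0.14, adjusted p = 0.193). DESeq2 called 5 of the 10 genes here, *Rela*, *Nfkbia*, *Nfkbie*, *Tnfaip3* and *Bcl3*, and 16.2% of all genes. All 7 cycling genes tested were also called higher in the *Ptx3*-positive cells, and their part in these differences was not tested.

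The genes around the 10 in the pathway were read from lists. Of 20 receptor and adaptor genes, 3 rose in mutant BECs and none was called in LECs. Of all genes tested, 2.12% were called in BECs and 2.76% in LECs, in either direction. They were *Il1r1*, the IL-1 receptor (29.9 and 45.2 CPM in controls, 89.3–113 CPM in mutants, log2 fold change 1.41, adjusted p = 0.0187), *Tnfrsf1a*, the main TNF receptor (0.74, adjusted p = 0.0370), and *Ltbr*, the lymphotoxin-beta receptor (0.69, adjusted p = 0.0363). Of 13 kinase and scaffold genes none was called in either cell type, nor were any of the other REL and IkB genes (3 tested in LECs, 4 in BECs) or of 11 ubiquitin regulators tested. Lowest in p among these in LECs was *Cyld*, a deubiquitinase (log2 fold change 0.92 ± 0.25, adjusted p = 0.0893). Of the NF-kB-responsive endothelial genes, 7 of 17 tested rose in mutant BECs (median log2 fold change of the list 1.45), beside the 2.12% of all genes called. *Selp* (P-selectin) went from 97.0 and 138 CPM in controls to 407–767 CPM in mutants (2.31, adjusted p = 0.00773), *Sele* (E-selectin) from 34.6 and 50.1 to 165–231 CPM (2.12, adjusted p = 0.00648), *Vcam1* from 7.60 and 13.5 to 44.5–80.9 CPM (2.42, adjusted p = 0.0228) and *Plau*, the urokinase gene, rose by 1.74 (adjusted p = 0.0209). The chemokine gene *Ccl2* was also called, at 0.29 and 0.02 CPM in control and 4.71–34.9 CPM in mutant BECs. The 410 genes called in BECs became 39 with the plate series block and 0 with the handling covariate. No gene of these lists was therefore called in BECs with that covariate. In LECs 1 of 20 tested rose, *Ccl2* (4.88 and 11.5 CPM in controls, 42.9–152 CPM in mutants, adjusted p = 0.0439), and 1 fell, *Ier3* (log2 fold change -1.85, adjusted p = 0.0170). The list's median in LECs was -0.01, and 2.76% of all genes were called there. Selectin levels in LECs, at 0.12–7.58 CPM, were those of a gene hardly expressed there. None of these genes passed the test of the LEC against the BEC difference (for *Selp* -2.11 ± 0.47, adjusted p = 0.143).

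Between LECs and BECs of mutant mice, receptor genes were among those that differed. *Il1r1* (log2 difference -5.53), *Tlr4* (-5.62), *Tnfrsf1b* (-3.44) and *Tnfrsf1a* (-1.77) were lower in LECs, and *Cd40* was higher (2.33, adjusted p = 2.1e-05). In all, 7 of 20 receptor and adaptor genes were lower and 1 higher, where 19.2% of all genes were called in either direction. Of the kinases only *Ikbke*, which encodes IKK-epsilon, differed, at 29.9–72.5 CPM in mutant LECs and 0.119–3.56 CPM in mutant BECs. *Nfkbid*, an atypical IkB gene, was at 0.00867–0.0558 CPM in mutant LECs and 1.89–4.58 CPM in mutant BECs, and *Rel* (-1.12) and *Nfkbiz* (-0.86) were lower in LECs too. Within mutant LECs, 1 of the 20 receptor and adaptor genes was called with *Ptx3*, where 4.62% of all genes were, so this count is near the background. It was *Cd40*, a TNF receptor family gene whose signal feeds the noncanonical pathway, higher in the positive cells (1.10 ± 0.10, adjusted p = 0.00557, edgeR).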

How the data were processed

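The deposited tables hold raw read counts per gene for every well of 9 plates (7 of mutant, 2 of control mice), without a filter. Per the methods and processing notes, the authors aligned reads to GRCm38 with the chicken PIK3CA sequence (TopHat2 2.1.1), removed duplicates (SAMtools 0.1.18) and counted with featureCounts, whose strand setting and annotation version are not given in the sources used here. Exon lengths came with the deposited tables.

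Symbols were matched through GENCODE vM21 (98.9% of 46517 genes). The limits of the methods (200 genes, 50000 reads, 10% mitochondrial reads at most) left 3248 of 3456 wells (2524 of 2688 mutant, 724 of 768 control). No doublet caller was run, and 0 cell profiles occurred in duplicate. The 7 mice are the replicates, and plates of one mouse (mutants 3 and 5) were added. Sums were scaled by TMM, filtered by filterByExpr and tested by the quasi-likelihood method of edgeR 4.0.16 and by DESeq2 1.42.0, in R 4.3.3. Scripts ran in Python 3.11.15 with numpy 2.4.6, pandas 2.3.3, scipy 1.17.1 and matplotlib 3.10.9, and the tests were checked on simulated data. Reads are not independent molecules, so depth gives no counting error here and the spread between mice is used. Shares of cells were compared by exact permutation over 21 splits.

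The genes, lists and rules were chosen with earlier results of these data known. Of each list the called genes with the largest changes are named (up to 5), or the 2 with the lowest p. Alternatives were DESeq2, its size factors, no filter, each mouse left out, thinned cells, equal cell numbers, first plates, no cycling, dual-marker, contaminant-marker or handling-high cells, the plate series, the handling level as a covariate, the replicate block and other cell splits. Leaving out cells with 300 CPM of contaminant markers, and *Ptx3*-positive LECs, was added after seeing the data.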

Additional observations from a re-analysis of the deposited data

Results flagged for a closer look

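In each cell type the 5 mutant values of every gene were checked for a mouse far from the others (gap to the nearest mouse over the whole range above 0.71), in 20 groups, of which chance alone marks about 1 in 20. Mutant 5 stood apart for 2 of them. *Tnfaip3* in LECs was at 58.8 CPM in mutant 5 and at 12.2–16.4 CPM in mutants 1–4, a gap of 0.910 of the range, and its plates gave 63.8 and 55.3 CPM. *Nfkbia* in BECs was at 737 CPM in mutant 5 and at 430–492 CPM in the other mutants, a gap of 0.798, and its plates gave 727 and 758 CPM. Mutant 5 is the only mutant on the plate series of the controls, and its LECs were the most deeply sequenced (median 488024 reads per cell, against 274769–335018 in the other mutants). The part of either in these values was not tested.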

How the results depend on the processing

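There were only 2 control mice. The summed handling level, the shares of cycling and *Ptx3*-positive LECs and the plate series go with genotype, and reads carry no molecular barcodes. Over single genes, under alternatives other than leaving out a mouse, 546 values kept their direction and their side of the threshold, 15 newly passed, 8 no longer passed and 61 turned sign. With 1 mouse left out, these counts were 473, 3, 15 and 49. The 546 and the 61 include the shares of cells without thinning, which were judged by direction only and not by a threshold. No call turned sign. Why counts of calls moved was not tested.

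In LECs the 546 genes called became 2472 by DESeq2, 59 without cycling cells, 9 without *Ptx3*-positive cells, 148 in handling-low cells, 162 with the plate series block, 3 within the 800-900 plate series, 41 with the handling covariate and 4 with the replicate block, and 153 to 546 with 1 mouse left out. Of the 10 genes, 1 was called, and 3 without dual-marker cells (*Nfkb2*, *Nfkbie* and *Tnip1*), 0 in handling-low cells, without *Ptx3*-positive cells, within the 800-900 plate series, with the handling covariate and with the replicate block, and 0 to 1 with 1 mouse left out, 0 without control 1. In BECs the 410 genes became 2238 by DESeq2, 235 without cycling cells, 162 in handling-low cells, 39 with the plate series block, 0 within the 800-900 plate series, with the handling covariate and with the replicate block, and 159 to 586 with 1 mouse left out. Of the 10 genes 0 were called, and 3 by DESeq2, and 1 without mutant 5, otherwise 0 with 1 mouse left out. For the difference between LECs and BECs the 42 genes became 1240 by DESeq2, 15 without cycling cells, 22 without dual-marker cells, 109 without cells with 2 contaminant markers, 117 without cells with 300 CPM of contaminant markers, 10 in handling-low cells and 0 to 21 with 1 mouse left out, and DESeq2 called 1 of the 10 genes. Between LECs and BECs of mutants, 2 to 4 of the 10 genes were called with 1 mouse left out. In controls, the 2277 genes became 4319 by DESeq2, 1480 without dual-marker cells and 1158 to 2133 with 1 mouse left out, and the 2 of the 10 became 4 by DESeq2, 0 without dual-marker cells and 0 to 3 with 1 mouse left out. For handling, the 1 gene called in LECs became 193 by DESeq2, 2 with the highest-scoring against the lowest-scoring cells (the extreme cells) and 0 to 1 with 1 mouse left out, with 2 of the 10 genes by DESeq2, and the 4 in BECs became 237 by DESeq2 and 0 to 1 with 1 mouse left out. For *Ptx3*, the 854 genes became 2648 by DESeq2, 181 with any read and 350 to 507 with 1 mouse left out, and the 1 of the 10 became 5 by DESeq2, 0 with any read and 1 to 2 with 1 mouse left out.

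The labels number mutants and controls alike (1 and 2), but nothing in them ties a mutant to a control. Deviations of same-numbered mice correlated at -0.05 and 0.03 in LECs and at 0.03 and 0.11 in BECs, so that the replicate block stands for a number only. With it *Nfkbie* in LECs was at 2.18 (adjusted p = 0.0712), and the block moved the 546 genes called in LECs to 4 and the 410 in BECs to 0.

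In mutant against control LECs, values turned sign for *Nfkb1* to 0.0019 and *Bcl3* to 0.15 without cycling cells, *Nfkb1* to 0.025 and *Bcl3* to 0.72 in handling-low cells, *Bcl3* to 0.066 with equal cell numbers, *Tnfaip3* to -0.42 and *Bcl3* to 0.35 without Ptx3-positive cells, *Nfkb1* to 0.14 and *Tnfaip3* to -0.086 with the replicate block. Leaving out 1 mouse, the ranges were *Tnfaip3* -0.10 to 1.52, *Nfkb1* -0.16 to 0.044, *Nfkbia* -0.0014 to 0.45 and *Birc3* -0.34 to 1.34. In mutant against control BECs, values turned sign for *Tnfaip3* to -0.028 with thinned cells, *Nfkb1* to 0.051 and *Birc3* to 0.078 without cycling cells, *Tnfaip3* to -0.013 without dual-marker cells, *Tnfaip3* to -0.13 and *Birc3* to 0.21 in handling-low cells, *Nfkbia* to -0.019 and *Tnfaip3* to -0.33 without cells with 300 CPM of contaminant markers, *Tnip1* to -0.13 with the plate series block, *Tnip1* to -0.13 within the 800-900 plate series, *Nfkb2* to -0.22 and *Relb* to -0.12 with the handling covariate, *Nfkb1* to 0.0059 and *Nfkbia* to -0.068 with the replicate block. With 1 mouse left out they were *Nfkbia* -0.089 to 0.27, *Birc3* -0.18 to 0.080 and *Tnfaip3* -0.32 to 1.25. For the LEC minus the BEC difference, values turned sign for *Nfkb1* to -0.045, *Relb* to -0.23 and *Tnip1* to -0.020 with thinned cells, *Nfkb1* to -0.050, *Tnfaip3* to -0.45 and *Tnip1* to -0.00081 without cycling cells, *Nfkb1* to -0.0086, *Nfkb2* to 0.91 and *Rela* to 0.21 without dual-marker cells, *Relb* to -0.75 without cells with 2 contaminant markers, *Relb* to -0.45, *Tnfaip3* to -1.07, *Birc3* to -0.28 and *Tnip1* to -0.23 in handling-low cells, *Relb* to -0.0067 and *Tnfaip3* to -0.0014 with first plates, *Rela* to 0.14 without cells with 300 CPM of contaminant markers. Without 1 mouse the ranges were *Nfkb1* -0.034 to 0.13, *Relb* -0.23 to 0.21, *Tnip1* -0.28 to 0.27, *Tnfaip3* -0.30 to 0.28 and *Birc3* -0.23 to 1.17. Between LECs and BECs of mutant mice, values turned sign for *Relb* to -0.019 by DESeq2, *Relb* to -0.019 with DESeq2 size factors, *Nfkb1* to 0.070 without dual-marker cells. Leaving out 1 mouse, the ranges were *Relb* -0.068 to 0.085, *Nfkb1* -0.065 to 0.057 and *Nfkb2* -0.33 to 0.085. Between LECs and BECs of control mice, values turned sign for *Relb* to -0.032 by DESeq2, *Relb* to -0.032 with DESeq2 size factors, *Nfkb1* to 0.079, *Nfkb2* to -1.01, *Relb* to -0.0075 and *Tnip1* to -0.69 without dual-marker cells. With 1 mouse left out they were *Relb* -0.22 to 0.23 and *Nfkb1* -0.072 to 0.015. Between handling-high and handling-low LECs, values turned sign for *Relb* to -0.34 and *Nfkbie* to -0.078 with the extreme cells. Without 1 mouse the ranges were *Nfkb1* -0.030 to 0.043 and *Relb* -0.091 to 0.24. Between handling-high and handling-low BECs, values turned sign for *Nfkb2* to -0.10, *Relb* to -0.050 and *Birc3* to 0.12 with the extreme cells. Leaving out 1 mouse, the ranges were *Birc3* -0.33 to 0.15 and *Tnip1* -0.15 to 0.14. Between Ptx3-positive and Ptx3-negative LECs, leaving out 1 mouse gave *Tnip1* -0.21 to 0.19. Without thinning, the mutant minus control share of cells (percentage points) turned to -8.34 for *Nfkb1* in LECs, -3.33 for *Nfkb1* in BECs, -0.145 for *Rela* in LECs, -0.481 for *Nfkbia* in LECs, -0.794 for *Nfkbia* in BECs, -3.29 for *Birc3* in LECs and -6.7 for *Birc3* in BECs.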
